A study of Mus musculus with 4 samples.

Results

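Reelin and the proteins that receive its signal are described here by 6 genes: Reln, the receptor genes Lrp8 and Vldlr, the adaptor gene Dab1, and the adaptor genes Crk and Crkl. The members were chosen by gene symbol, as the rows of that name in both deposited tables, and make up 6 of 19968 genes present in both. Expression was measured by RNA sequencing of cerebral cortex from C57BL/6 mouse embryos at embryonic day 15. The first group carried a conditional knockout of the zinc-finger regulator Prdm16 (Prdm16cKO), and the other group carried the floxed alleles alone (Prdm16fl/fl). The labels list 2 samples in each group, and the tables hold 2 libraries labelled cKO, called cKO 1 and cKO 2, and 1 library of the floxed group, called floxed. The sources used here give neither the Cre line nor the deleted exon, the title of 1 sample of each group holds the word Blood, and the study's design text speaks of telencephalic tissue in triplicate. Separate animals are not stated for the libraries, so the p-values reflect only how far these libraries differ, and that spread may be technical.

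Reelin is a large secreted glycoprotein that Cajal-Retzius cells release in the outermost zone of the developing cortex. It binds the lipoprotein receptors encoded by Lrp8 (also called ApoER2) and Vldlr on migrating neurons and radial glia, and Src-family kinases then phosphorylate the adaptor Dab1 on the receptor tails. Phosphorylated Dab1 recruits Crk and Crkl, which act through Rapgef1 and Rap1 on adhesion, and it is then removed by a Cul5 ubiquitin ligase. Mice without reelin, without Dab1 or without both receptors form a cortex whose layers are largely inverted.

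Library cKO 1 totalled 19514882 counts, cKO 2 totalled 18579178 and floxed 17839662, and levels are given in CPM, the usual per-megaread scaling of counts to these totals. Prdm16 had 34.6 CPM in cKO 1, 24.1 in cKO 2 and 30.2 in floxed, so its count over the whole gene did not separate the libraries by label. A count over the whole gene does not check the loss of an exon, and directions refer to the labels. Cortical identity markers such as Neurod6 (979 and 872 CPM in the cKO libraries, 902 in floxed) and Neurod2 (809 and 814 CPM in cKO, 871 in floxed) were abundant in every library. Library cKO 2 stood apart in the meninges: all 13 meningeal markers were lower there than in floxed and higher in cKO 1, with summed levels of 908 CPM in cKO 1, 55.2 in cKO 2 and 594 in floxed. In bulk tissue, fewer cells of a type and less RNA per cell cannot be told apart. Each result is therefore given for each library.

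Lrp8 had the largest fitted fold of the 6 members, although in cKO 1 alone the log2 ratio of Crk (0.32) was of about the same size as that of Lrp8 (-0.32). It stood at 203 CPM in cKO 1 and 175 CPM in cKO 2, against 253 CPM in floxed, on 3959, 3256 and 4510 counts. Both cKO libraries lay below floxed. Dab1 was the member with the most even difference in the other direction, at 164 CPM in cKO 1 and 167 CPM in cKO 2, against 147 CPM in floxed. Reln itself differed little, at 186 and 192 CPM in the cKO libraries and 178 CPM in floxed. No member passed the test over all genes.

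**Figure D1:**
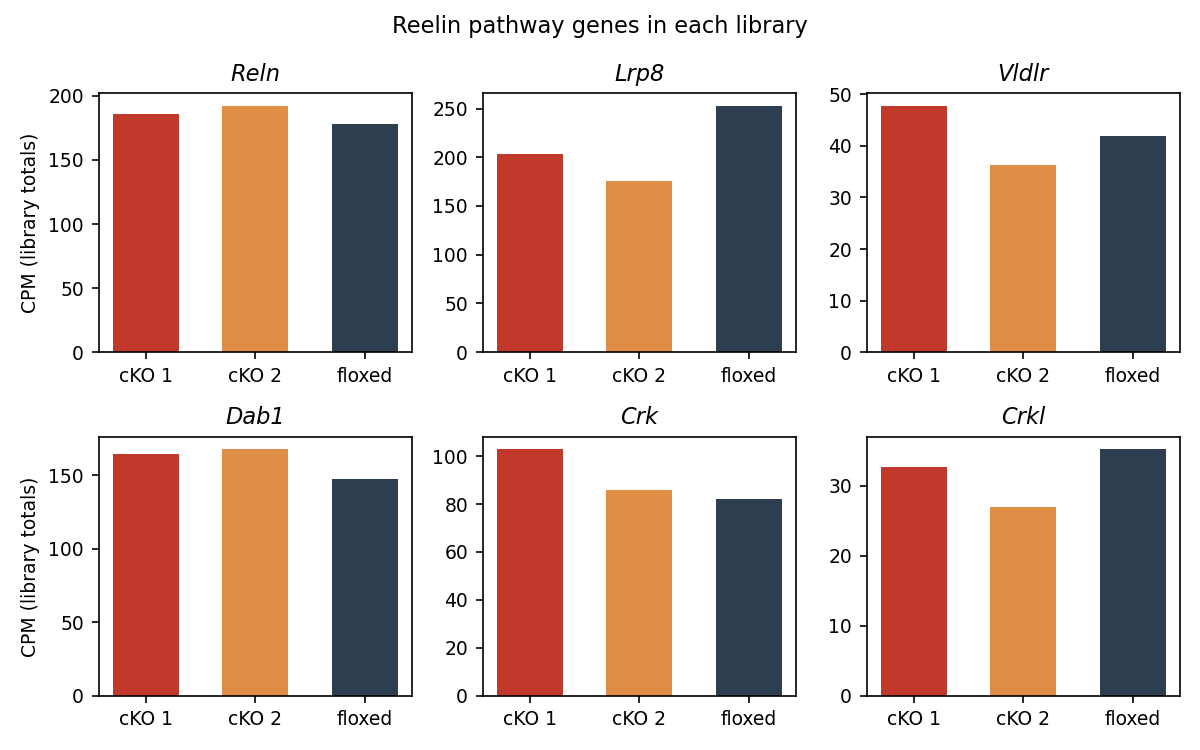
Level of each member in CPM (y axis, from 0) in cKO 1, cKO 2 and floxed (x axis); each bar is 1 library. Lrp8 is lower in both cKO libraries (203 and 175 CPM) than in floxed (253 CPM), and Vldlr lies on either side of floxed.

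The test was edgeR's quasi-likelihood test on the counts, with libraries scaled to their totals and Benjamini-Hochberg adjustment over 16658 genes, and all 6 members passed its count filter. It called 0 of the 6 members at an adjusted p under 0.05, and DESeq2 and limma-voom also called 0, with 1 member (Lrp8) at an unadjusted p under 0.05 by each of these tools. Over all genes it called 0.006%, which was Ptx3 alone (adjusted p = 0.00869), and 1.53% had an unadjusted p under 0.05 (0.864% on the lower side, where Lrp8 lay). The fit had 1 residual degree of freedom, from the pair of cKO libraries, and floxed, a single library, was taken to have the same spread. Ratios of a cKO library to floxed carry a 95% exact interval that covers counting error only. Beyond that interval in both cKO libraries, 5.18% of tested genes were higher and 7.55% lower, and of the members 1 was higher (Dab1) and 1 lower (Lrp8). Among tested genes with a mean of 20 to 250 CPM, where all 6 members lay, the shares were 6.73% higher and 10.8% lower. The counts of members are too small to set the members apart from other genes.

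The stretches just before the annotated starts of Lrp8, Dab1 and Reln are shown. Lrp8 and Dab1 are the members that left the counting interval on the same side in both cKO libraries, and Reln is the ligand. Vldlr, which left it on opposite sides, is not shown. The 250 bases before the first start that RefSeq lists for each gene (build GRCm38.p6) follow, in the direction of transcription, with capitals marking the hexamer GGGCGG or its reverse complement, the GC box.
Lrp8, chr4:107802635-107802884, plus strand: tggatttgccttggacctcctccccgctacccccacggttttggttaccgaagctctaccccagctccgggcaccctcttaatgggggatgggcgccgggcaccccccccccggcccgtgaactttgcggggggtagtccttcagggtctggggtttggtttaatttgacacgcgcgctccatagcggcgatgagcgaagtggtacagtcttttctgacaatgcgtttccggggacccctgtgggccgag
Dab1, chr4:104367288-104367537, plus strand: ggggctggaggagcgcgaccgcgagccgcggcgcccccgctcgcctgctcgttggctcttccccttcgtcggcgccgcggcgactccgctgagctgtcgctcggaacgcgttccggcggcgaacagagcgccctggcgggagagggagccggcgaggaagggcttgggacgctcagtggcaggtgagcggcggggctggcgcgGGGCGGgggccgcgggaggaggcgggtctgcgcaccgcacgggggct
Reln, chr5:22344706-22344955, minus strand: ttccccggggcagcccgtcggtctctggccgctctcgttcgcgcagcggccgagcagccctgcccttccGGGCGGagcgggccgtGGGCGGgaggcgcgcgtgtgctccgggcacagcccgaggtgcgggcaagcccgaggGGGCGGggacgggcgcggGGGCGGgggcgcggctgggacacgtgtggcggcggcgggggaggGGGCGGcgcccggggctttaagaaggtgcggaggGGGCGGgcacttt
The Lrp8 window holds 0 GC boxes at 62.4% G and C, the Dab1 window 1 at 78.0%, and the Reln window 6 at 80.0%. Of 27025 such windows in the RefSeq table, 32.9% hold at least 1 GC box, and the median G and C content is 52.0%. RefSeq lists 3 starts for Lrp8, 2 for Dab1 and 1 for Reln, the Lrp8 and Dab1 windows lie inside the spans of these genes as deposited, and the counts per gene do not show which start was used.

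The ligand gene Reln (ENSMUSG00000042453, GRCm38 chromosome 5, 21884454 to 22344702, minus strand) spans 460 kb. Its 3624 counts in cKO 1 and 3572 counts in cKO 2, against 3180 counts in floxed, gave 189 ± 4.63 CPM in cKO (SD, n = 2) and 178 CPM in floxed. Both cKO libraries lay above floxed, as they did for 27.6% of tested genes. The ratio to floxed was 1.04 in cKO 1 (95% interval 0.993 to 1.09), which spans 1, and 1.08 in cKO 2 (1.03 to 1.13), which does not. The fit gave a log2 fold of 0.08 (SE 0.13) with an edgeR adjusted p of 1. The cKO libraries were close to each other, with a ratio of cKO 1 to cKO 2 of 0.966 (0.922 to 1.01).

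Reln is made by Cajal-Retzius cells and by some GABAergic interneurons, so markers of both stand beside it. Of 8 Cajal-Retzius markers 7 were higher in both cKO libraries, 4 of them beyond counting error, where 27.6% and 5.18% of tested genes were so. Their summed level was 135 CPM in cKO 1, 167 in cKO 2 and 117 in floxed, with median log2 ratios of 0.23 and 0.59, against medians over all tested genes of 0.01 and -0.04. The transcription factor gene Nhlh2 had 34.2 and 43.9 CPM in cKO and 26.7 CPM in floxed, the secreted factor gene Ndnf 17.8 and 16.3 CPM in cKO and 12.1 in floxed, and the LIM homeobox gene Lhx1 5.74 and 6.03 CPM in cKO and 3.81 in floxed. Ebf2 was low in every library, at 1.95 and 3.07 CPM in cKO and 1.07 in floxed.

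The other Cajal-Retzius markers were less even. Trp73, which encodes the p53 relative p73, had 30.1 and 36.1 CPM in cKO and 29.9 CPM in floxed, and the calcium-binding protein gene Calb2 had 22.9 and 31.4 CPM in cKO and 22.0 in floxed. Ebf3 had 12.5 and 13.1 CPM in cKO and 11.6 in floxed. Lhx5 had 9.79 CPM in cKO 1 and 17.4 in cKO 2, against 9.81 in floxed, and was the marker on either side of floxed. None of the 8 passed edgeR's test over all genes, 1 (Nhlh2) had an unadjusted p under 0.05, and DESeq2 and limma-voom called 0. Beside these markers, Reln had log2 ratios of 0.06 and 0.11, and whether it differed from them was not tested.

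Most interneuron markers lay the other way: of 15 markers 10 were lower in both cKO libraries, 4 of them beyond counting error. Of the others, 1 was higher in both and 4 were split. Lower in both, and lower beyond counting error, were 31.9% and 7.55% of tested genes. Their summed level was 834 CPM in cKO 1, 822 in cKO 2 and 931 in floxed. Dlx1 had 204 and 193 CPM in cKO and 232 CPM in floxed. The part of either cell type in the level of Reln was not tested.

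**Figure D2:**
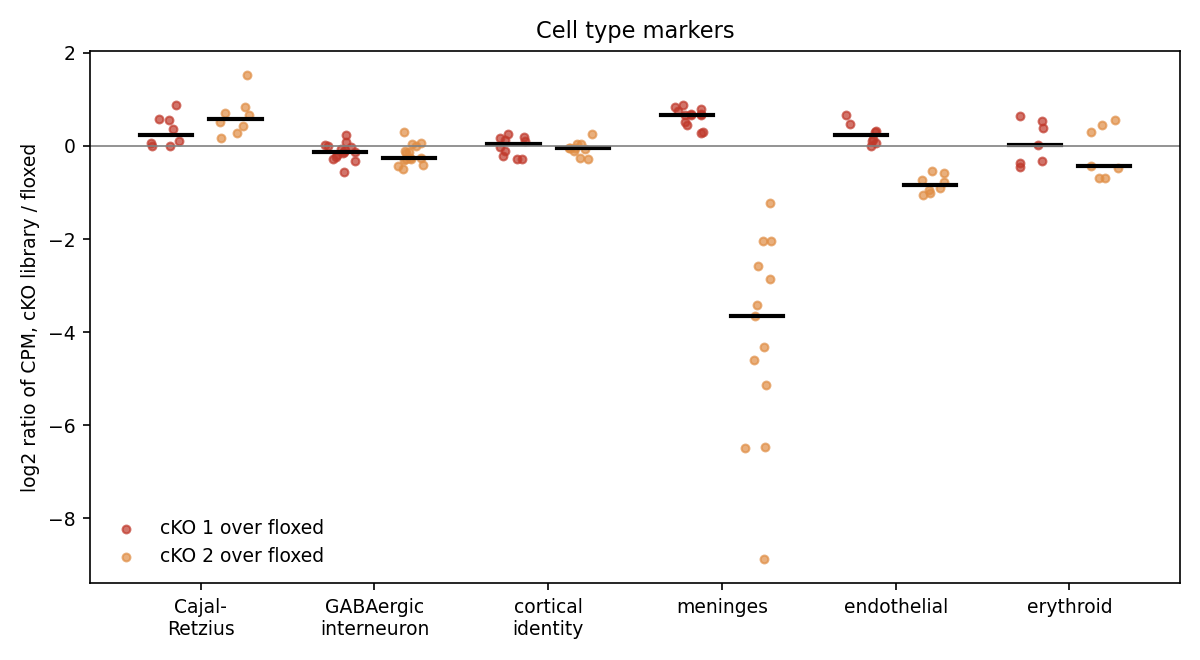
Log2 ratio of CPM of each cKO library to floxed (y axis) for markers of 6 cell types (x axis); each point is a gene and each black line a list median. Cajal-Retzius medians are 0.23 and 0.59, interneuron medians -0.13 and -0.26, and meningeal medians 0.68 in cKO 1 and -3.65 in cKO 2.

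The receptor gene Lrp8 (ENSMUSG00000028613, chromosome 4, 107802261 to 107876840, plus strand) had 189 ± 19.5 CPM in cKO (SD, n = 2) and 253 CPM in floxed. The ratio to floxed was 0.802 in cKO 1 (95% interval 0.769 to 0.838) and 0.693 in cKO 2 (0.662 to 0.725). Both intervals lie below 1, and the cKO libraries also differed from each other, with a ratio of cKO 1 to cKO 2 of 1.16 (1.10 to 1.21). The fitted log2 fold was -0.42 (SE 0.14), with an unadjusted edgeR p of 0.0198 and an adjusted p of 1. Of all tested genes, 104 had a smaller p. In the authors' deposited tables Lrp8 had log2 folds of -0.32 (adjusted p = 4.61e-22) for cKO 1 and -0.53 (adjusted p = 8.63e-56) for cKO 2, each from 1 library against 1, and neither was marked significant.

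The other receptor gene, Vldlr (ENSMUSG00000024924, chromosome 19, 27216484 to 27254231, plus strand), lay on either side of floxed. It had 932 counts or 47.8 CPM in cKO 1 and 675 counts or 36.3 CPM in cKO 2, against 747 counts or 41.9 CPM in floxed. The ratio to floxed was 1.14 in cKO 1 (95% interval 1.03 to 1.26) and 0.868 in cKO 2 (0.781 to 0.964), so each library left the counting interval in its own direction. The fitted log2 fold of 0.01 (SE 0.20, edgeR adjusted p = 1) is the average of these. Without cKO 1 the log2 ratio was -0.20, and without cKO 2 it was 0.19. Vessel endothelium also expresses Vldlr, and the 8 endothelial markers had summed levels of 345 CPM in cKO 1, 169 in cKO 2 and 290 in floxed, in the same order as Vldlr. Cldn5 had 79.1 and 51.5 CPM in cKO and 75.3 in floxed, and Cdh5 69.8 and 21.8 CPM in cKO and 44.2 in floxed. Meningeal markers, led by Col3a1 (215 and 6.84 CPM in cKO, 136 in floxed) and Col1a2 (178 and 4.58 CPM in cKO, 111 in floxed), had this order too. Their part in the level of Vldlr was not tested.

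Within a library the ratio of the receptors does not depend on how libraries are scaled. Lrp8 took 80.9% of the counts of both receptors in cKO 1 (95% exact interval 79.8% to 82.0%) and 82.8% in cKO 2 (81.6% to 84.0%), against 85.8% in floxed (84.8% to 86.7%). Both cKO intervals lie below the floxed interval, but they cover counting error only, and shares of other gene pairs were not taken for comparison. The share of Lrp8 was lower in cKO 1 with a higher Vldlr and in cKO 2 with a lower one. Summed over both receptors, the level was 251 CPM in cKO 1 and 212 in cKO 2, against 295 CPM in floxed. Reln had 0.741 counts per receptor count in cKO 1 and 0.909 in cKO 2, against 0.605 in floxed. Most receptor counts are those of Lrp8, so this ratio carries the lower Lrp8 of the cKO libraries and is not a separate result.

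**Figure D3:**
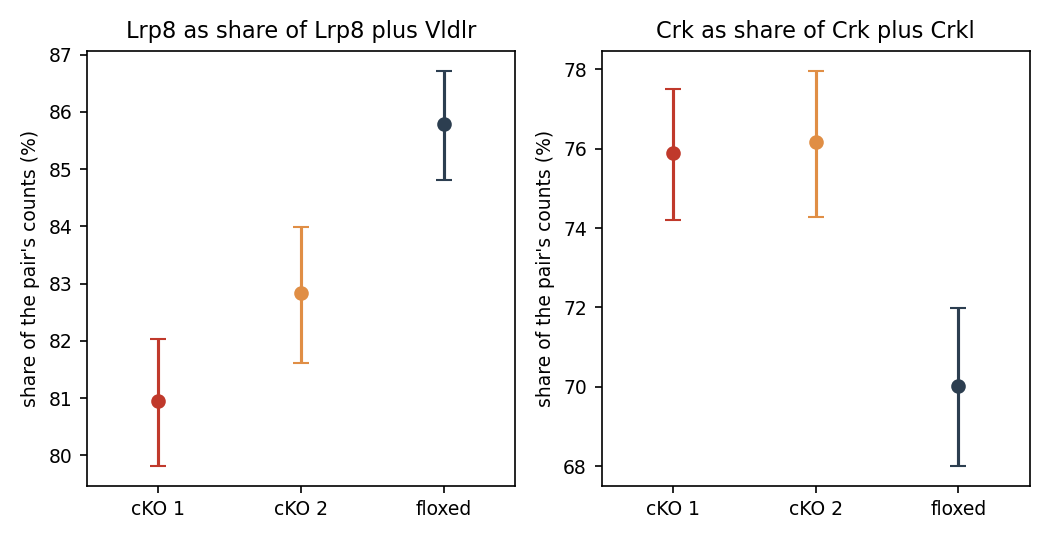
Share of Lrp8 in the counts of Lrp8 and Vldlr (left) and of Crk in the counts of Crk and Crkl (right), in percent (y axes, not from 0), by library (x axis), with 95% exact binomial bars for counting error. Lrp8 is at 80.9% and 82.8% in cKO and 85.8% in floxed, and Crk at 75.9% and 76.2% in cKO and 70.0% in floxed.

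Dab1 (ENSMUSG00000028519, chromosome 4, 103619359 to 104744844, plus strand), the adaptor that binds the receptor tails, was counted 3209 times in cKO 1 and 3112 times in cKO 2, against 2627 times in floxed. Its level was 166 ± 2.16 CPM in cKO (SD, n = 2) and 147 CPM in floxed. The ratio to floxed was 1.12 in cKO 1 (95% interval 1.06 to 1.18) and 1.14 in cKO 2 (1.08 to 1.20). Both intervals lie above 1, and the cKO libraries did not leave the counting interval against each other (ratio 0.982, 0.934 to 1.03). The fit gave a log2 fold of 0.17 (SE 0.13) with an edgeR adjusted p of 1. Per receptor count, Dab1 had 0.656 counts in cKO 1 and 0.792 in cKO 2, against 0.4997 in floxed. This ratio, too, carries the lower Lrp8 of the cKO libraries.

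Crk and Crkl encode related adaptors with an SH2 domain that binds phosphorylated tyrosines and SH3 domains that bind Rapgef1 and other partners. Crk (ENSMUSG00000017776, chromosome 11, 75679259 to 75706908, plus strand) had 103 CPM in cKO 1 and 86.0 CPM in cKO 2, against 82.2 CPM in floxed, on 2007, 1597 and 1467 counts. Only cKO 1 left the counting interval: the ratio was 1.25 in cKO 1 (1.17 to 1.34) and 1.05 in cKO 2 (0.973 to 1.12). Crkl (ENSMUSG00000006134, chromosome 16, 17451987 to 17486255, plus strand) had 32.7 CPM in cKO 1 and 26.9 CPM in cKO 2, against 35.2 CPM in floxed, on 638, 500 and 628 counts. Here only cKO 2 did so: the ratio was 0.929 in cKO 1 (0.831 to 1.04) and 0.764 in cKO 2 (0.678 to 0.861). The fitted log2 folds were 0.20 for Crk (SE 0.16) and -0.24 for Crkl (SE 0.19), each with an edgeR adjusted p of 1.

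Set against each other within a library, Crk and Crkl gave nearly the same balance in both cKO libraries. Crk took 75.9% of the counts of the pair in cKO 1 (95% exact interval 74.2% to 77.5%) and 76.2% in cKO 2 (74.3% to 78.0%), against 70.0% in floxed (68.0% to 72.0%). The cKO intervals overlap each other and lie above that of floxed. They too cover counting error only, without other gene pairs for comparison. Summed, the pair had 136 CPM in cKO 1 and 113 CPM in cKO 2, against 117 CPM in floxed, so the summed level lay on either side of floxed while the balance did not.

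**Figure D4:**
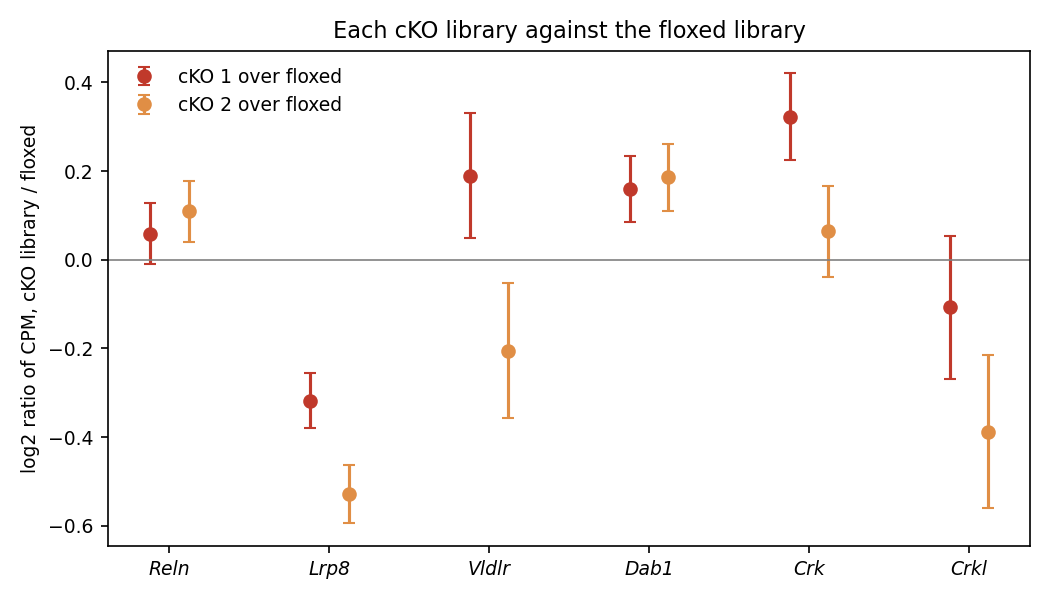
Log2 ratio of CPM of cKO 1 and cKO 2 to floxed (y axis) for the 6 members (x axis), with 95% exact bars for counting error. Both cKO libraries lie below 0 for Lrp8 and above 0 for Dab1 with bars that do not reach 0, and Vldlr splits around 0.

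Across the 6 members, 3 were higher and 2 lower in both cKO libraries and 1 was split, so 5 lay on the same side in both, as 59.5% of tested genes did. In cKO 1, 3 members were higher and 1 lower beyond the counting interval, where 17.9% of tested genes were higher and 16.1% lower (34.0% in either direction). In cKO 2 these numbers were 2 and 3, where 16.1% were higher and 24.6% lower (40.7% in either direction). These shares run over all tested genes and were not taken at the level of the members. The median log2 ratio of the members was 0.11 in cKO 1 and -0.07 in cKO 2. In the authors' deposited tables, 4 members for cKO 1 and 5 for cKO 2 had an adjusted p under 0.05, as did 21.5% and 30.3% of the genes listed. The authors marked 0 of the 6 as significant in either table, where 2.35% and 6.72% of the genes listed were marked. Genes marked in these tables had absolute log2 folds of 1 or more.

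Levels between genes were compared per kilobase of exon (CPM per kb over all exons annotated in GENCODE M21). In the cKO libraries Dab1 had 20.99 ± 0.274, Crk 19.96 ± 2.52 and Lrp8 18.0 ± 1.86 CPM per kb (SD, n = 2), and the values of Lrp8 and Crk overlapped, as did those of Crk and Dab1. In floxed, Lrp8 led with 24.0 CPM per kb, before Dab1 with 18.6 and Crk with 17.4. Reln followed with 7.96 ± 0.195 CPM per kb in cKO and 7.51 in floxed, Crkl with 5.91 ± 0.811 in cKO and 6.98 in floxed, and Vldlr with 4.18 ± 0.803 in cKO and 4.16 in floxed. Among tested genes Lrp8 stood at percentile 82.9 and 79.99 in cKO and 86.1 in floxed by this measure, and Vldlr at 52.3 and 48.2 in cKO and 49.99 in floxed. With the longest transcript as the length, the values were 16.2 for Reln and 28.5 CPM per kb for Lrp8 in cKO, so the level of Reln relative to the others depends on the annotation.

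Other genes of the pathway were described from 4 lists with 75 genes, all of which were in both tables and passed the count filter. Of these, 12 were higher in both cKO libraries, 28 lower in both and 35 split, against shares over all tested genes of 27.6% for higher and 31.9% for lower. The counts of each list stand against the same shares. Beyond counting error 3 of the 75 were higher and 11 (14.7%) lower, where 5.18% and 7.55% of all tested genes were so. Among tested genes with a mean of 20 to 250 CPM the background was 6.73% higher and 10.8% lower. Scaled with TMM factors, 7 of the 11 lower genes remained beyond counting error. The shares of all tested genes above hold for library totals, and none is given here for TMM factors. No gene of the lists passed edgeR's test over all genes, 3 had an unadjusted p under 0.05, and DESeq2 and limma-voom called 0.

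Among proteins that act outside the cell or on the receptors, 2 of 13 were higher and 2 lower in both cKO libraries. Clu, which encodes the lipoprotein-associated chaperone clusterin, another ligand of these receptors, had 57.4 and 45.4 CPM in cKO and 63.6 CPM in floxed. Its ratio was below 1 beyond counting error in both (log2 ratios -0.15 and -0.48). Apoe, a lipoprotein ligand of the receptor family, was split, at 178 CPM in cKO 1 and 79.7 in cKO 2, against 139 in floxed. This is the order of the meningeal markers, whose part was not tested. Lrpap1, a chaperone of the receptor family, had 152 and 151 CPM in cKO and 144 in floxed. The 5 genes listed for proteases that cleave reelin, named after their values were seen, did not lie on the same side. Adamts3 had 6.97 and 6.03 CPM in cKO and 5.89 in floxed, higher in both cKO libraries, and Adamts2 had 9.12 and 6.51 CPM in cKO and 9.25 in floxed, lower in both. The remaining genes were split, with Plat at 46.4 and 22.8 CPM in cKO and 34.4 in floxed, Adamts4 at 6.82 and 4.79 CPM in cKO and 6.11 in floxed, and Adamts5 at 5.38 and 2.80 CPM in cKO and 4.48 in floxed.

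Of 41 intracellular genes, 8 were higher and 14 lower in both cKO libraries, 2 and 7 of them beyond counting error. Rapgef1, the Rap1 activator that Crk proteins bind, had 217 and 208 CPM in cKO and 237 CPM in floxed. Dcx, a microtubule-binding protein of migrating neurons, had 840 and 754 CPM in cKO and 871 in floxed. Cfl1, the actin-severing protein cofilin, was the most abundant gene of the list at 1714 and 2093 CPM in cKO and 1694 in floxed.

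The genes that turn over Dab1 did not lie on the same side. Socs7, which brings phosphorylated Dab1 to the Cul5 ligase, had 103 and 107 CPM in cKO and 125 CPM in floxed (log2 ratios -0.28 and -0.22). Rnf7, the ring subunit of that ligase, had 88.5 and 89.0 CPM in cKO and 79.4 in floxed, and Socs6, a relative of Socs7, had 28.4 and 25.1 CPM in cKO and 21.5 in floxed. All 3 left the counting interval in both cKO libraries. Cul5 itself, chosen after its values were seen, had 52.9 and 48.2 CPM in cKO and 51.9 in floxed.

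The lower genes Nck2 (72.6 and 74.6 CPM in cKO, 80.8 in floxed), Dab2ip (191 and 203 CPM in cKO, 217 in floxed) and Nectin1 (78.2 and 80.6 CPM in cKO, 88.1 in floxed) remained beyond counting error in cKO 1 but not in cKO 2 once TMM factors were used. Nck2 is an adaptor that binds Dab1, Dab2ip a Ras GTPase activator that binds Dab proteins, and Nectin1 an adhesion molecule by which Cajal-Retzius cells contact migrating neurons. The 3 Src-family kinase genes of the list, named after their values were seen, differed among themselves. Fyn had 230 and 225 CPM in cKO and 231 in floxed, within counting error in both cKO libraries. Src had 197 and 214 CPM in cKO and 213 in floxed, below floxed beyond counting error in cKO 1 and not in cKO 2. Yes1 had 20.8 and 15.6 CPM in cKO and 13.3 in floxed, above floxed in both, beyond counting error in cKO 1 and, with TMM factors, in both.

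**Figure D5:**
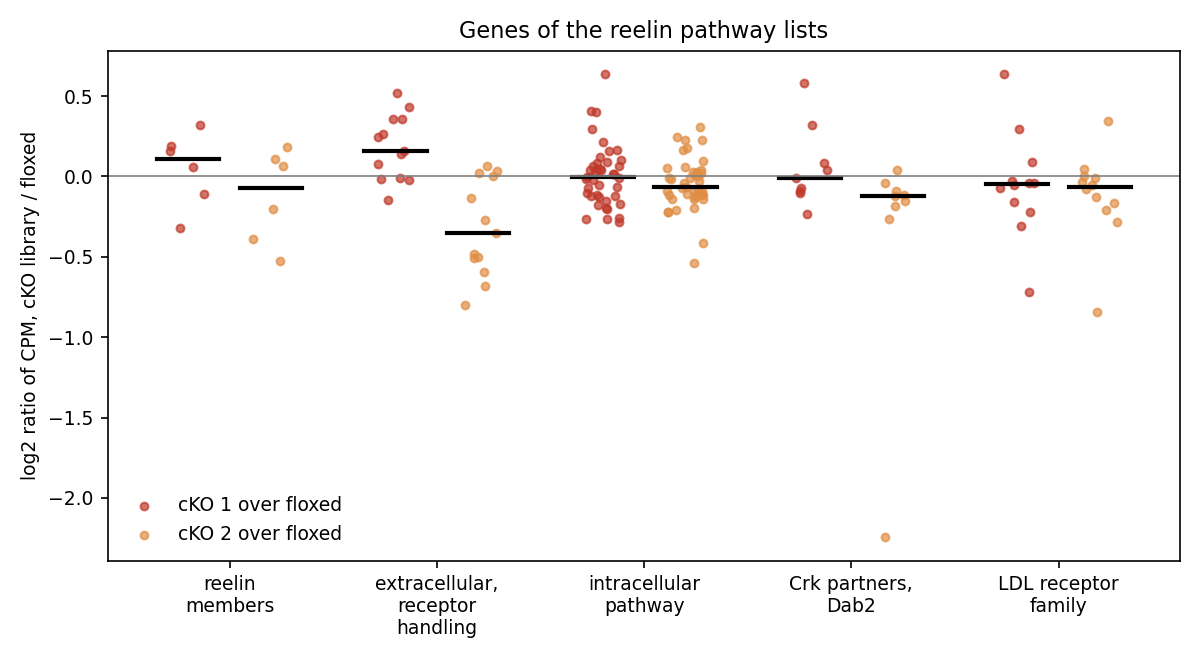
Log2 ratio of CPM of each cKO library to floxed (y axis) for the 6 members and the 4 pathway lists (x axis); each point is a gene and each black line a list median. The medians of the extracellular list are 0.16 in cKO 1 and -0.35 in cKO 2, and the intracellular medians lie near 0.

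Of 9 genes for Crk partners and the Dab1 relative Dab2, 0 were higher and 4 lower in both cKO libraries. Bcar1, the scaffold p130Cas that Crk binds, had 128 and 141 CPM in cKO and 150 in floxed, and with TMM factors remained beyond counting error in cKO 1 but not in cKO 2. The kinase gene Abl1 had 152 and 147 CPM in cKO and 159 in floxed.

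The wider LDL receptor family, to which the reelin receptors belong, held the 2 largest fitted folds of the 4 lists among genes on the same side of floxed in both libraries, those of Sorl1 and Lrp4. Sorl1, which encodes the sorting receptor sorLA, had 1065 counts in cKO 1 and 929 in cKO 2, against 1602 in floxed, which are log2 ratios of CPM of -0.72 and -0.84. Its fitted log2 fold was -0.78 (SE 0.14), with an unadjusted edgeR p of 0.000701 and an adjusted p of 0.956. Lrp4, the agrin receptor, had 45.5 and 37.0 CPM in cKO and 29.2 CPM in floxed. Its fitted log2 fold was 0.50 (SE 0.19), with an unadjusted p of 0.0316 and an adjusted p of 1 by edgeR. Lrp5, a Wnt coreceptor, had 40.8 and 37.4 CPM in cKO and 45.6 CPM in floxed. Of the 12 genes in this list 2 were higher and 8 lower in both libraries, where 27.6% and 31.9% of tested genes were so. The most abundant, Lrp1, had 385 and 391 CPM in cKO and 393 in floxed, and Lrp3 had 173 and 195 CPM in cKO and 202 in floxed.

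The word Blood in some titles gives a reason to set erythroid markers beside these values. Of 7 markers, 3 were higher and 3 lower in both cKO libraries and 1 was split. Their summed level was 1590 CPM in cKO 1, 1281 in cKO 2 and 1748 in floxed, the order of Lrp8 (203, 175 and 253 CPM). The sum had this order, but not every marker did. Of the other members Crkl had it, and Reln, Vldlr, Dab1 and Crk did not. Clu, Dcx and Sorl1 of the pathway lists were among other genes with this order. The share of all tested genes with it is not given here. Hbb-bs had 760 and 553 CPM in cKO and 749 in floxed, and Hba-a1 427 and 363 CPM in cKO and 587 in floxed. Hbb-bt, named after its values were seen, was higher in both, at 128 and 121 CPM in cKO and 82.4 in floxed. These globin levels are uncertain, since each gene shares sequence with a near-identical copy. The part of blood in these levels was not tested.

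Genes most like Reln and Lrp8 were taken by the distance of centred log2 CPM over the 3 libraries among 10150 other genes of at least 10 CPM. For Reln they were Mff, Cdip1, Rpl17, Taf12 and Acadsb, with distances up to 0.004. The nearest, Mff, had 140 and 145 CPM in cKO and 134 CPM in floxed. For Lrp8, the other member with the widest range, they were Xpa, Gm42372, Fbxo32, Loxl1 and Atxn1l, with distances up to 0.023. Xpa, the nearest, had 19.6 and 16.8 CPM in cKO and 24.2 CPM in floxed. Likeness over 3 libraries describes these values only.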

How the data were processed

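Libraries of cortical RNA were prepared with the TruSeq RNA kit at 2 µg of input RNA, per the labels. The kit leaves strand unmarked, and in GENCODE M21 Reln alone of the members shares exon bases (1.04%) with another gene. The authors deposited raw counts per gene, per the file headers. The submitters' processing notes list Bowtie2 2.2.3, TopHat2 2.0.12, HTSeq 0.6.0 and mm9. Positions in the deposited tables match GRCm38 (17844 of 19913 genes identical in GENCODE M21), so coordinates are GRCm38. Also deposited were normalized values (CPM, from the values), a fold ratio, its log2 and p-values of 1 library against 1, from a test not given in the sources used here.

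The floxed counts, the same in both deposited tables for shared genes, were used once. The quasi-likelihood test of edgeR 4.0.16 was run on the counts under R 4.3.3 (minimum count 10 in its default filter), with DESeq2 1.42.0 and limma-voom (limma 3.58.1) as alternatives. Beforehand the edgeR step alone was run on simulated data with less spread than these libraries and larger folds than those of the members. That run does not show how the tests perform on these data. A count of 0 allows up to 3 counts, or 0.154 CPM in cKO 1, 0.161 in cKO 2 and 0.168 in floxed. Intervals and limits cover counting error only, since reads carry no molecular identifiers. Genes named were the members, pathway genes of at least 5 CPM beyond counting error on the same side in both cKO libraries, the 2 highest of each list, every Cajal-Retzius marker and the 5 genes most like Reln and Lrp8 (log2 CPM, prior count 2); 2 genes that this rule names are not reported here. The members and lists were chosen with earlier results of these data known. Library totals implied by the authors' CPM were added as an alternative after seeing the data.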

Additional observations from a re-analysis of the deposited data

How the results depend on the processing

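Across 7 other scalings, filters and tools, the 6 members kept the direction of their fold and stayed above an adjusted p of 0.05 in 41 of 42 values; the exception was Vldlr, whose log2 fold was -0.0049 with limma-voom. The log2 fold of Lrp8 ranged over -0.42 to -0.40 (unadjusted p 0.0196 to 0.032). Leaving out a cKO library leaves 1 library against 1, a value with no test, and ranged over -0.53 to -0.32 for Lrp8, 0.06 to 0.11 for Reln, -0.20 to 0.19 for Vldlr (its sign turns without cKO 1), 0.16 to 0.19 for Dab1, 0.06 to 0.32 for Crk and -0.39 to -0.11 for Crkl. The number of genes called higher over all genes was 1, and it was 0 with TMM factors, with DESeq2 size factors in edgeR and without the count filter, and 5 with DESeq2; unadjusted p-values under 0.05 then numbered 217, 215, 412 and 98, against 255. No gene was called lower by any of these. Members higher in both cKO libraries beyond counting error numbered 1, and 2 with TMM factors or DESeq2 size factors, the added gene under TMM factors being Crk; pathway genes lower in both numbered 11, and 7 under either scaling. Judged by 1 cKO library, members higher numbered 2 to 3 and lower 1 to 3, and pathway genes higher 6 to 19 and lower 21 to 32; by construction fewer genes pass in both libraries. Levels per kb in cKO moved with the longest transcript as the length to 31.4 for Dab1 and 5.27 for Vldlr. No paired analysis was possible because the labels pair no cKO sample with a floxed sample and 1 floxed library was analysed. The cause of these changes was not tested. Depth limits Crkl, at 638 counts or fewer, more than the other members.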
